A study of Mus musculus with 12 samples.

Results

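Serpins are a family of proteins, most of which inhibit serine proteases, and the mouse liver makes most of those that circulate in plasma. The 63 Serpin genes examined here are all rows of the gene count tables, 24062 genes in all, whose symbol begins with Serpin followed by a letter from a to i, including the pseudogene Serpina4-ps1. The letter after Serpin names the clade. The libraries were made from livers of 12 female C57BL/6J mice. The mice arrived at 6 weeks of age, acclimated for 2 weeks, and were moved from chow to the control diet shortly before the experiment. For 10 days, 6 mice then stayed on the control diet (replicates 1 to 6) and 6 received the same diet with BIBB-515, an inhibitor of lanosterol synthase in the cholesterol pathway, at 55 mg per kg body weight (replicates 6 to 11). More mice per group were fed than were sequenced, and the labels do not say how the sequenced mice were chosen or in which batches the libraries were made.

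A serpin presents a flexible reactive loop to its protease as bait. When the protease cleaves the loop, the serpin changes its fold and traps the enzyme in a covalent complex. The sequence of the loop decides which protease is caught, so gene copies that differ mainly in the loop can have different targets. Clade A holds the main secreted serpins of hepatocytes, among them the alpha-1-antitrypsins (Serpina1), the antichymotrypsin-like Serpina3 genes and 2 hormone carriers that inhibit no protease. Clade B proteins act mostly inside cells. The clades C, D, E, F and G include inhibitors of coagulation, fibrinolysis and complement, and Serpinh1 is a chaperone of collagen in the endoplasmic reticulum.

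The 5 Serpina1 genes that were tested, Serpina1a to Serpina1e, lie in tandem on chromosome 12 and are the clearest case of near-identical copies with unlike values here, so their sequences are shown first. The windows below are the 82 bases of each promoter that end 6 bases after GTTAAT, a sequence that the hepatocyte factor HNF1 can bind, which is in capitals. All are on the minus strand of GRCm38.p6 (mm10), from RefSeq, 5′ to 3′, and 72 of the 82 positions are the same in all 5.
Serpina1a: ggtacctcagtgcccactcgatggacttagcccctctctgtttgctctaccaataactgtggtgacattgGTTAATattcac
Serpina1b: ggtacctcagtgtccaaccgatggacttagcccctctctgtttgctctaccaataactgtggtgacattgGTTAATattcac
Serpina1c: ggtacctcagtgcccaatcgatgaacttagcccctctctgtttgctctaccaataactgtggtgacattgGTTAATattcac
Serpina1d: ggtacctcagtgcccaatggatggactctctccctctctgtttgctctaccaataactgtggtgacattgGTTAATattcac
Serpina1e: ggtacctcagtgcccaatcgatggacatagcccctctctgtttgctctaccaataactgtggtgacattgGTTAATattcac
The windows lie at chr12:103863629-103863710 (Serpina1a), chr12:103738204-103738285 (Serpina1b), chr12:103904966-103905047 (Serpina1c), chr12:103773638-103773719 (Serpina1d) and chr12:103956964-103957045 (Serpina1e). The window of Serpina1e matched those of Serpina1a and Serpina1c at 80 of 82 bases each. In Serpina1e 72 bases lay between GTTAAT and the annotated start site, against 10 to 21 in the other 4 genes. The annotated first exon of Serpina1e was shorter, with 41 bases against 92 to 103. The distance thus reflects where the annotation places the start, and no difference in promoter spacing is read from it.

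The copies also differ in the loop, and no other coding stretch was aligned. The 81 bases below, from GENCODE M21 transcripts, code for the reactive loop and its flanks and lie in the last exon of each gene, with capitals at the 18 positions that differ among the 5 genes.
Serpina1a: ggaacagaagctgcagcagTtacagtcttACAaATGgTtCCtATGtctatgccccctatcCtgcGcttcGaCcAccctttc
Serpina1b: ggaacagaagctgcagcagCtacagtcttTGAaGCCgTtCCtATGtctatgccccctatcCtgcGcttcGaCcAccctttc
Serpina1c: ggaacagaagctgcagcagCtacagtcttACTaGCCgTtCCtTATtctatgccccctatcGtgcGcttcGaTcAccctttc
Serpina1d: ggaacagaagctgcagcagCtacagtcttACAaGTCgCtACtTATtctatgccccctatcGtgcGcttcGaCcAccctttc
Serpina1e: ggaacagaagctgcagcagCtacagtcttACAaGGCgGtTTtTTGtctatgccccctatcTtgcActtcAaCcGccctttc
They lie at chr12:103853750-103853830, chr12:103728317-103728397, chr12:103895087-103895167, chr12:103763755-103763835 and chr12:103947093-103947173, in the order a to e, on the minus strand. Serpina1e differed from each of the other copies at 10 to 12 of the 81 bases, and Serpina1c and Serpina1d, the most alike pair, at 5.

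Of the 63 genes, 29 reached a level of 1 CPM, the counts of a gene scaled to a common library size, in at least 2 mice and were tested, 17 had counts below that and 17 had no count in any mouse. The untested genes were mostly of clade B, in which 5 of 27 members were tested against 16 of 25 in clade A. The genes without a count included the Serpinb3 genes, Serpinb5, 5 copies of Serpinb9, Serpina1f, Serpina3j and Serpini2. Depth ranged from 22764819 to 31058370 counted reads per mouse. All 6 hepatocyte markers examined were expressed in every mouse, and their summed level was 142732 to 160241 CPM in the control mice and 107609 to 122335 CPM in the BIBB-515 mice, with Alb, Ttr and Fgb lower on BIBB-515. Markers of leukocytes (8 of 12 tested), endothelium (all 6), bile duct (all 5) and fat (1 of 5) had no tested member past the threshold. For fat this rests on Fabp4 alone. Lower were 3 of 6 hepatocyte markers, 2 of 7 stellate cell and fibroblast markers (Lrat and Dcn) and Cela1, the 1 tested of 4 pancreatic markers. Over all tested genes 13.7% passed the threshold and 6.48% were lower. The part of these cell types in the differences below was not tested. In whole liver, fewer cells of a type and less RNA per cell cannot be told apart.

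By level per length of exon, the family was dominated by clade A. Serpina3k had the highest level in the control mice, with a mean of 5649 CPM per kb, followed by Serpina1b with 3872, Serpina1d with 2510 and Serpina1c with 2297. These values divide by the full exon length. The 632-base exon held 92 counted reads over the control mice in Serpina1c and 346 in Serpina1a, against 252209 in Serpina1b. The order among the Serpina1 copies therefore depends on which reads were counted and is not read as their order of expression. On BIBB-515, Serpina1b came first with 4376 CPM per kb and Serpina3k had 3102. In the other clades the highest levels in the control mice were 1297 CPM per kb for Serpinc1, 498 for Serpinf1, 432 for Serping1, 246 for Serpind1, 8.64 for Serpinh1, 8.38 for Serpinb6a and 0.833 for Serpine2. Together the 63 genes took 2.5% to 3.67% of all counts in a control mouse and 2.48% to 2.78% in a BIBB-515 mouse. Serpina3k accounted for 0.489% to 1.26% of the counts in control mice and 0.453% to 0.597% in BIBB-515 mice. Without it, the family's summed level was 23082 ± 2531 CPM (SD, n = 6) in control and 21130 ± 1075 in BIBB-515 mice.

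**Figure D1:**
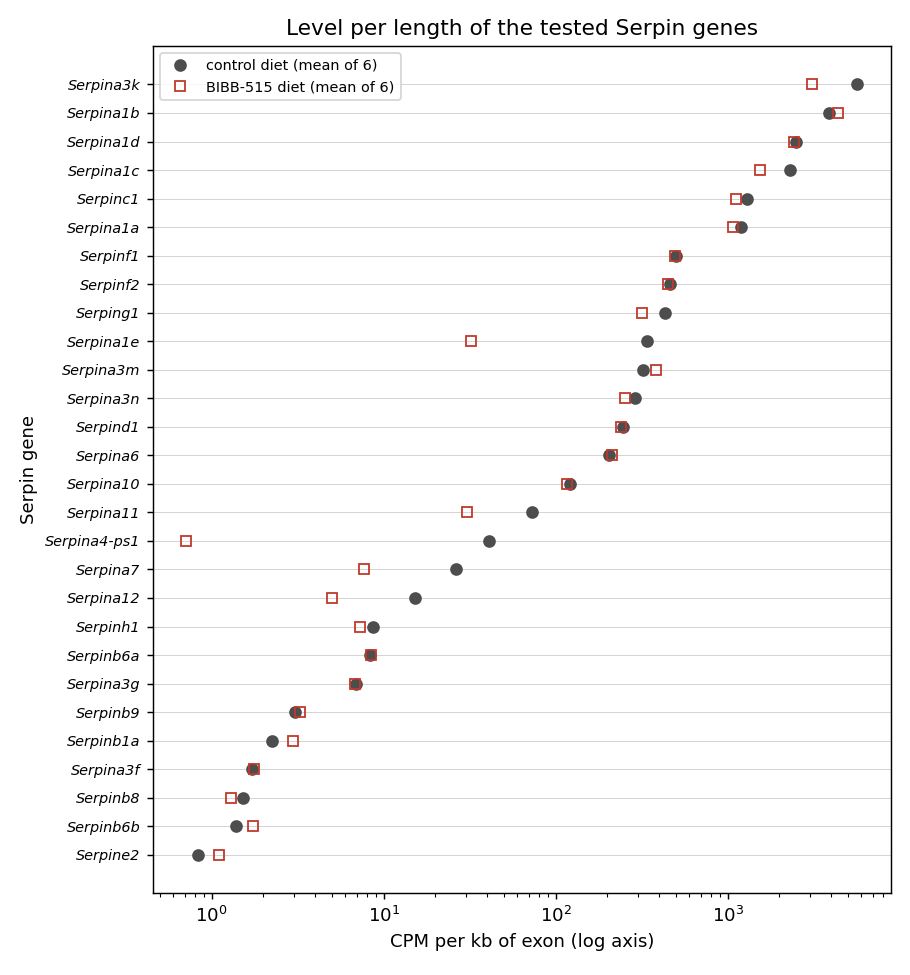
Mean level of tested Serpin genes in CPM per kb of exon (log axis), with filled circles for 6 control mice and open squares for 6 BIBB-515 mice. Levels in control mice run from 0.833 for Serpine2 to 5649 for Serpina3k, and Serpina4-ps1 and Serpina1e show the widest gaps between the diets. The lengths include exons with few counted reads in Serpina1a, Serpina1c and Serpina12.

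The diet comparison asks which serpin genes of the liver differ between mice fed BIBB-515 and mice on the control diet. At a false discovery rate (FDR) under 0.05, 9 of the 29 tested members differed, which is 31.0%, against 13.7% of all 12481 tested genes. Of these, 8 were lower on BIBB-515 (27.6% of the tested members, against 6.48% of all genes), namely Serpina4-ps1, Serpina1e, Serpina7, Serpina12, Serpina11, Serpina3k, Serpina1c and Serping1. The share of tested members that were higher was 3.45%, against 7.18% of all genes. The 20 members that did not pass had log2 fold changes between -0.24 and 0.41. The 2 groups did not overlap for 4 members, among them Serpina11, Serpina7 and Serpina4-ps1, which is 13.8% of those tested against 7.07% of all genes. The median log2 fold change was -0.05 over the tested members and -0.01 over all tested genes.

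**Figure D2:**
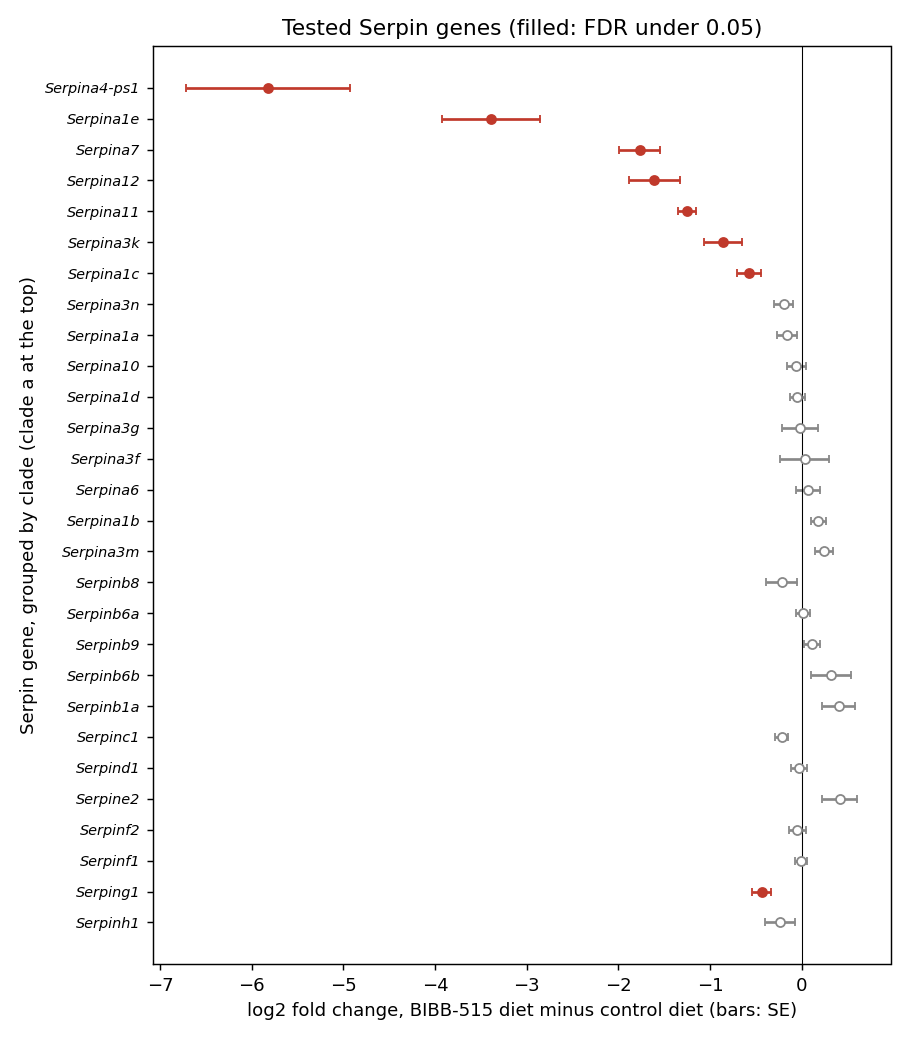
Log2 fold change on BIBB-515 against control diet with its standard error for tested Serpin genes, grouped by clade, with filled points past an FDR of 0.05. The 7 filled clade A genes lie left of 0, between -5.82 and -0.58, as does Serping1, at -0.44.

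The hormone carriers came apart. Serpina7 encodes thyroxine-binding globulin and is the only member on the X chromosome (chrX:139079250-139085236). Its level in the control mice was 31.9 CPM at the lowest, 62.6 at the median and 94.4 at the highest, and in the BIBB-515 mice 14.6, 16.5 and 25.8. Every BIBB-515 mouse was below every control mouse. The difference was 3.42-fold (log2 fold change -1.77, SE 0.22, FDR 0.000108, two-sided exact permutation p = 0.00216, the smallest that 6 against 6 mice allow), and all 4 exons with at least 60 reads in the control mice were lower, by log2 ratios of -1.79 to -1.75. Serpina6, which encodes corticosteroid-binding globulin, the carrier of glucocorticoids, gave a log2 fold change of 0.07 (SE 0.13, FDR 0.777), with 207 to 427 CPM in control and 281 to 357 CPM in BIBB-515 mice. Of 15 genes listed as hormone carriers and hormone response, all tested, 3 were lower and none was higher, with a median log2 fold change of -0.15. The share called was 20.0%, against 13.7% of all genes. The 3 included the other thyroxine carriers of plasma, Ttr (log2 fold change -0.49, FDR 0.00391) and Alb (-0.40, FDR 0.0129), and the thyroid hormone receptor Thrb (-0.40, FDR 0.00704).

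The alpha-1-antitrypsin genes differed among themselves. Serpina1e was 10.5-fold lower on BIBB-515 (log2 fold change -3.39, SE 0.53, FDR 0.000918). In the control mice it had 488, 141, 52.9, 618, 989 and 495 CPM in replicates 1 to 6, and in BIBB-515 mice it had 26.2 to 62.3 CPM with a median of 43.0. Control mouse 3 thus lay inside the BIBB-515 range and control mouse 2 between the groups, and 4 of the 6 BIBB-515 mice were below every control mouse. Serpina1c was 1.49-fold lower (log2 fold change -0.58, SE 0.13, FDR 0.00896), with 2319 to 4360 CPM in control and 1986 to 2418 CPM in BIBB-515 mice. Serpina1a (log2 fold change -0.16, FDR 0.381) and Serpina1d (-0.05, FDR 0.751) overlapped widely. Serpina1b had 5079 to 6223 CPM in control and 5680 to 6869 CPM in BIBB-515 mice, and did not pass the threshold over all genes (log2 fold change 0.18, SE 0.08, FDR 0.154, two-sided exact permutation p = 0.0173, unadjusted).

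The copies also made up different shares of the Serpina1 reads in the 2 diets. The summed level of the 5 genes was 15197 ± 2089 CPM (SD, n = 6) in control and 14069 ± 899 CPM in BIBB-515 mice. Serpina1b made up 33.4% to 39.8% of that sum in the control mice and 44.0% to 44.7% in the BIBB-515 mice, without overlap. Serpina1c made up 18.2% to 23.4% in the control mice and 15.3% to 16.2% in the BIBB-515 mice, also without overlap. Serpina1e made up 0.415% to 5.32% in control and 0.203% to 0.462% in BIBB-515 mice. These shares describe reads assigned to a single copy and were not tested.

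How many reads a copy kept depended on the exon. The counts leave out reads that map to several places, and 74.2% of the 50-base words of Serpina1c transcripts, 57.6% of Serpina1a, 50.9% of Serpina1d, 34.6% of Serpina1e and 29.5% of Serpina1b also occur in transcripts of other genes. The 632-base exon of Serpina1b had 252209 reads over the control mice and that of Serpina1d 165792, but that of Serpina1a had 346 and that of Serpina1c 92, although their next 3 exons had 151000 to 175267 in Serpina1a and 187532 to 281228 in Serpina1c. The levels of Serpina1a and Serpina1c given here thus rest almost wholly on their last 3 exons. Serpina1a shares 49.3% of its words with Serpina1c. All 5 exons of Serpina1e with at least 60 control reads were lower by log2 ratios of -3.49 to -2.69, and those of Serpina1c by -0.60 to -0.15, and the 5 of Serpina1b had log2 ratios of 0.13 to 0.40. The exon that holds the loop had log2 ratios of -0.17 in Serpina1a, 0.13 in Serpina1b, -0.60 in Serpina1c, -0.04 in Serpina1d and -3.42 in Serpina1e.

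The Serpina3 genes also differed from each other. Serpina3k, which encodes a kallikrein-binding serpin, had 12847, 5480, 4897, 10904, 11666 and 10202 CPM in control replicates 1 to 6 and 4363 to 5884 CPM in BIBB-515 mice, with a median of 5049. Control mice 2 and 3 both lay within the range of the BIBB-515 mice, and the other 4 control mice lay well above it. The log2 fold change was -0.86 (SE 0.21, FDR 0.0155, two-sided exact permutation p = 0.0281, unadjusted), and all 5 exons were lower, by log2 ratios of -0.95 to -0.82. Serpina3m, the next member along the chromosome, had a log2 fold change of 0.24 (SE 0.10, FDR 0.124), with 386 to 631 CPM in control and 570 to 706 CPM in BIBB-515 mice. Serpina3n, an acute phase gene, had 478 to 758 CPM in control and 485 to 559 CPM in BIBB-515 mice (log2 fold change -0.20, FDR 0.183). Serpina3f and Serpina3g, whose exons overlap so that shared reads were not counted, had log2 fold changes of 0.03 and -0.02. Serpina3c had 17 reads in all control mice together and 13 in all BIBB-515 mice, and was not tested. Among 15 acute phase genes listed beside Serpina3, Orm2 (log2 fold change 1.17, FDR 0.000162) and Lcn2 (1.20, FDR 0.0127) were higher and 3 were lower, among them Apcs (-0.74, FDR 0.00151) and Cp (-0.28, FDR 0.0244), with a list median of -0.22. The share called in this list was 33.3%, against 13.7% of all genes.

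Between the Serpina1 and Serpina3 genes lie members with other roles. Serpina11 had the smallest FDR of the family, 1.16e-06. It had 86.0 to 126 CPM in control mice, with a median of 108, and 39.9 to 51.4 CPM in BIBB-515 mice, with a median of 44.8. All BIBB-515 mice were below all control mice, 2.38-fold in the fit (log2 fold change -1.25, SE 0.10), and the 6 exons gave nearly the same log2 ratio, -1.27 to -1.25. Of its 50-base words, 35.7% also occur in Gm28577, a gene of the GENCODE annotation.

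Serpina12 encodes vaspin, a serpin described in fat that inhibits a kallikrein. It had 39.4, 22.3, 40.9, 94.4, 66.7 and 74.7 CPM in control replicates 1 to 6 and 13.9 to 25.4 CPM in BIBB-515 mice (log2 fold change -1.61, SE 0.28, FDR 0.00204). Of the 6 BIBB-515 mice, 5 were below every control mouse, and control mouse 2 was the exception among the controls. Its reads did not cover the whole annotated gene. In the control mice exon 1 had 0 reads and the 651-base exon 2 had 19, against 2699, 3547 and 4846 in exons 3 to 5. By these counts the values of Serpina12 rest on its last 3 exons, each of which was lower, by log2 ratios of -1.64 to -1.54. None of its 50-base words occurs in another gene's transcripts. Why the first 2 exons had few reads was not tested. Of 5 fat markers, Lep had no count in any mouse, and their summed level was 6.82 to 11.3 CPM in control and 6.92 to 11.6 CPM in BIBB-515 mice.

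Serpina4-ps1, an unprocessed pseudogene, showed the widest range of the tested members. The control mice had 22.4, 3.80, 4.24, 109, 109 and 83.1 CPM in replicates 1 to 6, and the BIBB-515 mice 0.349, 1.09, 1.86, 0.891, 1.25 and 0.367 CPM in replicates 6 to 11. The groups did not overlap, but control mice 2 and 3 lay closer to the BIBB-515 mice than to control mice 4 to 6. The fitted difference was 56.6-fold (log2 fold change -5.82, SE 0.89, FDR 0.000757, two-sided exact permutation p = 0.00216), and the 3 exons read had log2 ratios of -5.98 to -5.63. With limma-voom the log2 fold change was -4.98 and the call was lost (FDR 0.0722). Serpina10, which encodes the protein Z-dependent inhibitor of coagulation factor X, had 157 to 226 CPM in control and 162 to 209 CPM in BIBB-515 mice (log2 fold change -0.06, FDR 0.746).

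**Figure D3:**
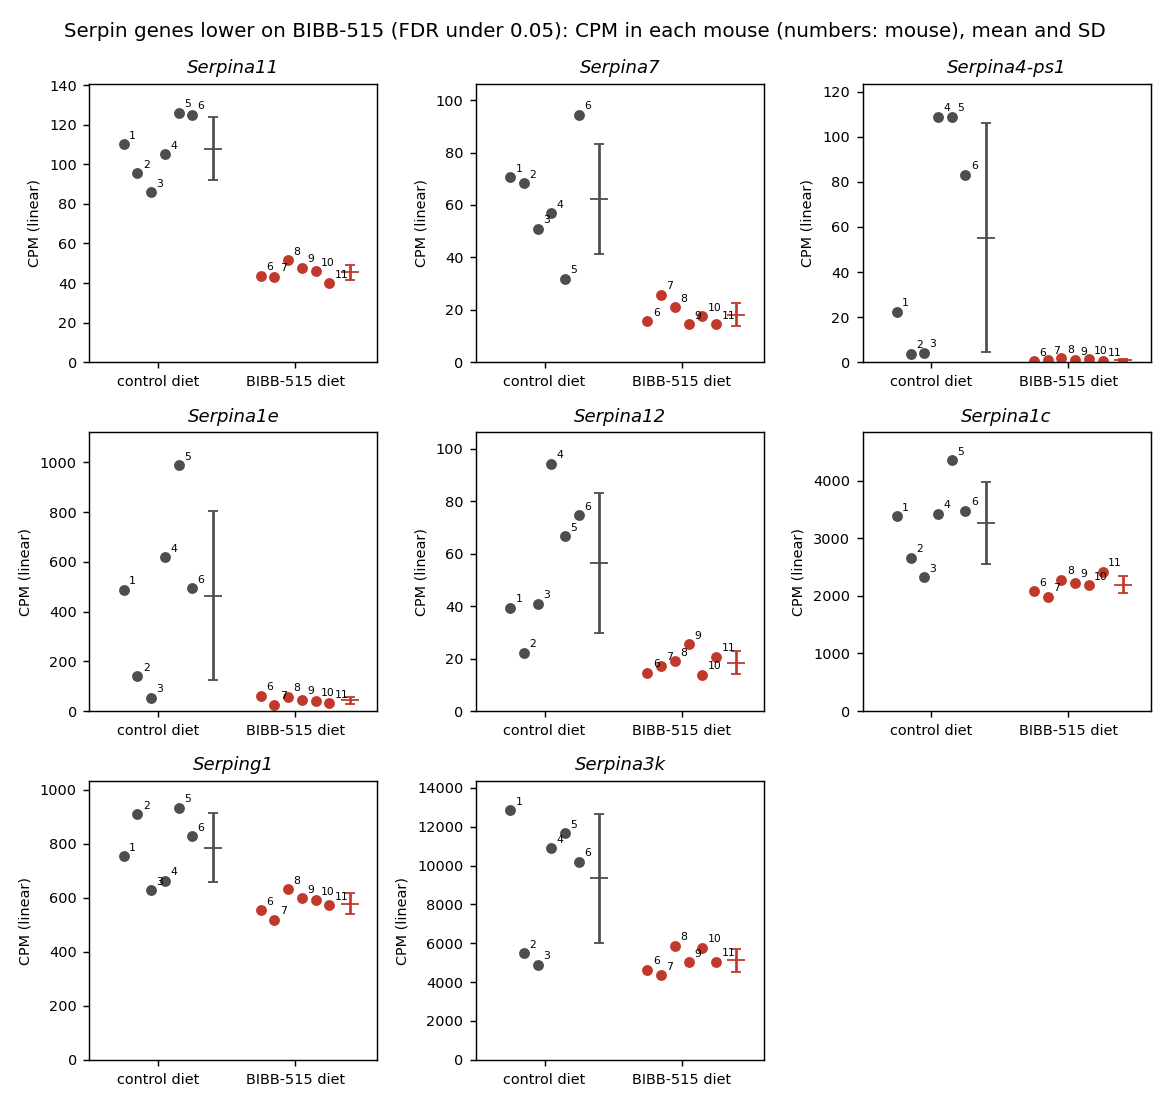
CPM in each mouse (linear axes) for the 8 Serpin genes that were lower on BIBB-515 at an FDR under 0.05, with the replicate number beside each point and the mean and SD at the right of each group. Serpina11, Serpina7 and Serpina4-ps1 show no overlap of the diets, and control mice 2 and 3 sit low for Serpina4-ps1, Serpina1e, Serpina1c and Serpina3k.

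On the chromosome, the lower genes were neighbors for the most part. The cluster on chromosome 12 (chr12:103616675-104414329, mm10) spans 798 kb and holds 24 members, of which 15 were tested, 6 were lower and none was higher, with a median log2 fold change of -0.16. The 6 are 40.0% of those tested, against 6.48% of all genes that were lower and 7.18% that were higher. Going from Serpina10, the first 5 tested genes, at 0 to 237 kb, had no call. Next came Serpina1c, Serpina1e, Serpina11, Serpina12 and Serpina4-ps1, at 278 to 461 kb, all lower, with only the untested Serpina9 among them. Of the 5 tested genes past 461 kb, all of them Serpina3 genes, only Serpina3k was lower. The 12 members of the clade B cluster on chromosome 1 included 1 tested gene and the 15 of the cluster on chromosome 13 included 4, and none of these 5 passed the threshold.

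**Figure D4:**
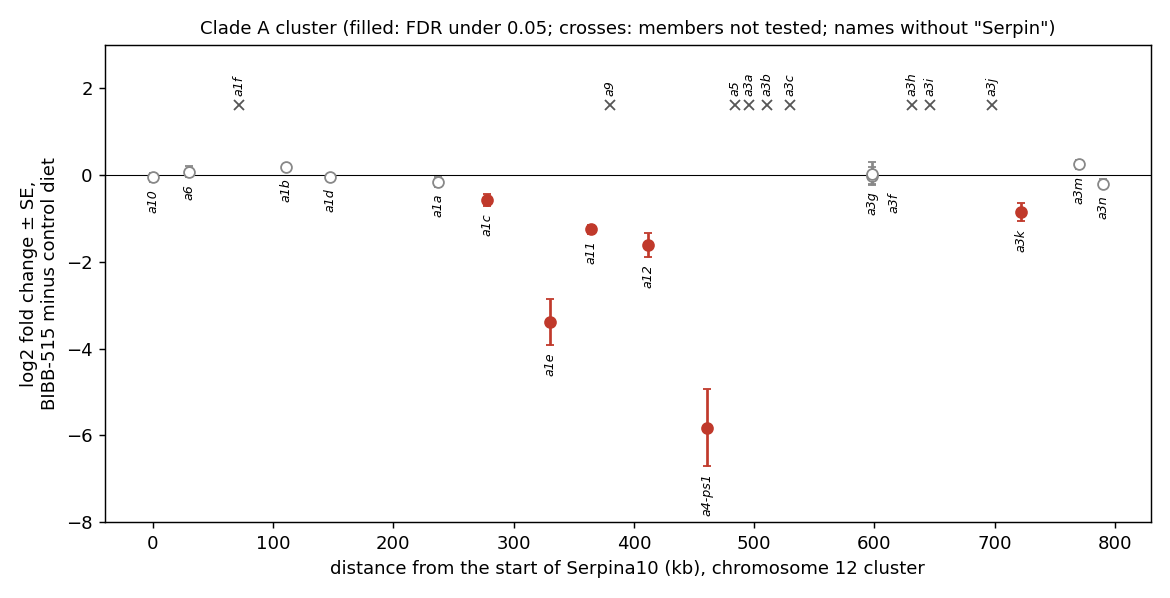
Log2 fold change with its standard error (vertical axis) against the distance in kb from the start of Serpina10 for the 24 members of the cluster on chromosome 12. Filled points passed an FDR of 0.05 and crosses mark members that were not tested. From 278 to 461 kb all 5 tested genes were lower, and Serpina3k at 722 kb was the only other one.

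Serpina9, which was too low to test, had 11, 4, 0, 18, 49 and 21 reads in control replicates 1 to 6, which is at most 2.29 CPM, and 0, 0, 1, 1, 3 and 0 reads in BIBB-515 replicates 6 to 11. In the fit without a filter on low counts its log2 fold change was -4.38 (SE 0.95, FDR 0.00786). The order of the control mice recurred in part of the family. Mouse 5 was highest or level with the highest and mice 2 and 3 were the lowest pair for Serpina1a, Serpina1b, Serpina1c, Serpina1e, Serpina4-ps1, Serpina9, Serpina10 and Serpina11, and mice 2 and 3 were also the lowest pair for Serpina3k. In Serpina11 these mice, at 95.5 and 86.0 CPM, stayed well above the BIBB-515 mice, and in Serpina1b, at 5179 and 5079 CPM, they lay below them. For Serpina7 the order was different, with mouse 5 lowest at 31.9 CPM and mice 2 and 3 at 68.3 and 51.0. It also differed for Serpina3n, Serpina3m and Serpina6, where mouse 2 was the highest control mouse, at 758, 631 and 427 CPM. In Serping1 mouse 2 was next to the highest, at 910 CPM, and in Serpina12 mice 2 and 1 were the lowest pair. Control mice 2 and 3 had 27914647 and 22867565 counted reads, the most and nearly the fewest of the control group. The summed level of the hepatocyte markers was 146082 and 142732 CPM in them and 147168 to 160241 CPM in the other 4 control mice, and that of the endothelial markers 221 and 247 CPM against 184 to 197 CPM. Sums of leukocyte (324 and 314 CPM), stellate cell and fibroblast (419 and 446) and bile duct markers (91.0 and 106) lay within those of the other 4. Fat markers had 9.3 and 11.3 CPM against 6.82 to 10.3, and pancreatic markers 10.4 and 10.1 CPM against 11.1 to 21.7. Whether these differences have a part in the low values was not tested. Without control mouse 2 the log2 fold changes were -3.58 for Serpina1e, -0.98 for Serpina3k and -6.07 for Serpina4-ps1, and without control mouse 3 they were -3.62, -0.99 and -6.06.

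**Figure D5:**
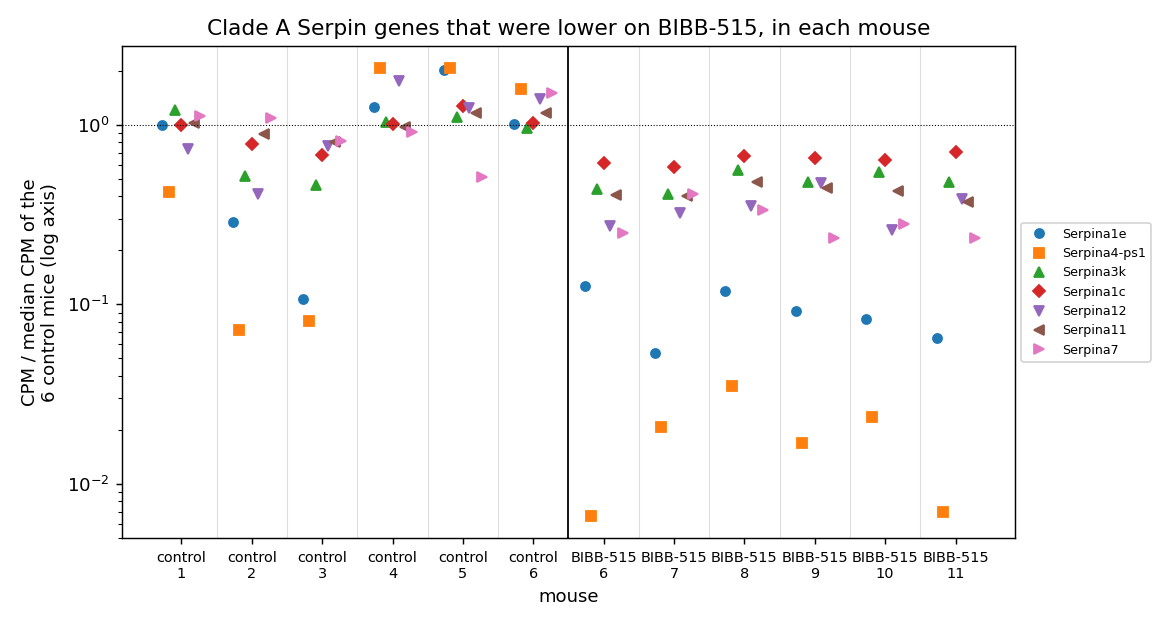
Level of the 7 clade A genes that were lower on BIBB-515 in each of the 12 mice, as CPM divided by the median of the 6 control mice (log axis). In control mice 2 and 3 the points for Serpina1e, Serpina4-ps1 and Serpina3k lie well below 1, while Serpina11 and Serpina7 lie closer to 1. Serpina12 also lies well below 1 in control mouse 2, at 22.3 CPM against a control median of 53.8.

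The following plasma serpins outside clade A had smaller differences. Serping1 encodes the C1 inhibitor, which restrains complement and the contact system. It had 628 to 935 CPM in control mice, with a median of 792, and 520 to 633 CPM in BIBB-515 mice, with a median of 582. Of the BIBB-515 mice, 5 of 6 were below every control mouse, and the log2 fold change was -0.44 (SE 0.10, FDR 0.0104), with all 8 exons lower, by log2 ratios of -0.52 to -0.40. Serpinc1 encodes antithrombin, the main inhibitor of thrombin. It had 2469 to 3087 CPM in control and 2247 to 2573 CPM in BIBB-515 mice, with 5 of 6 BIBB-515 mice below every control mouse. Its log2 fold change of -0.22 (SE 0.07, two-sided exact permutation p = 0.00433, unadjusted) had an FDR of 0.064. It passed with DESeq2 (FDR 0.00742), with 1 surrogate variable (FDR 0.0359) and without control mouse 2 (FDR 0.0333). Serpind1 (heparin cofactor II), Serpinf2 (alpha-2-antiplasmin) and Serpinf1 (pigment epithelium-derived factor) had log2 fold changes of -0.03, -0.05 and -0.01, with SEs of 0.09, 0.09 and 0.07.

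Some of the proteases that these serpins control were also lower. Of 24 listed target proteases, 19 were tested, 5 were lower (26.3%, against 6.48% of all genes) and none was higher (against 7.18% of all genes), with a median log2 fold change of -0.11. Coagulation factor XI (F11), a target of antithrombin and C1 inhibitor, had 81.2 to 112 CPM in control and 55.3 to 71.8 CPM in BIBB-515 mice (log2 fold change -0.59, SE 0.09, FDR 0.000615). Factor VII (F7, -0.35, FDR 0.00264), factor IX (F9, -0.36, FDR 0.00331) and Hgfac, an activator of hepatocyte growth factor (-0.31, FDR 0.0140), were also lower, as was C1s1, the complement protease bound by C1 inhibitor (-0.21, FDR 0.0269, named outside the rule of 4 genes per list). In these 5 genes, picked as those past the threshold, no BIBB-515 mouse reached the lowest control mouse. The other tested genes of the list overlapped between the diets. Over all genes, 7.07% had groups without overlap.

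Inhibitors of other families moved both ways. Of 21 listed, 19 were tested, 4 were lower and 3 were higher, 36.8% in all against 13.7% of all genes, with a median log2 fold change of -0.10. Ahsg, the plasma protein fetuin-A, was lower (log2 fold change -0.68, SE 0.11, FDR 0.000873), as were Itih3, a chain of the inter-alpha-trypsin inhibitors (-0.58, FDR 0.00131), and Mug2, an alpha-macroglobulin (-0.54, FDR 0.00243). Ambp, which encodes the bikunin subunit of the same inter-alpha-trypsin inhibitors, was higher (0.40, SE 0.07, FDR 0.00228), with 2295 to 2646 CPM in control and 2960 to 3479 CPM in BIBB-515 mice.

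Serpine2, protease nexin-1, had 1.32 to 2.20 CPM in control and 1.51 to 3.18 CPM in BIBB-515 mice (log2 fold change 0.41, SE 0.19, FDR 0.162), and Serpine3, with 41 reads in all control and 40 in all BIBB-515 mice, was not tested.

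Serpinh1, the collagen chaperone, had 13.7 to 29.8 CPM in control and 15.4 to 19.7 CPM in BIBB-515 mice (log2 fold change -0.24, SE 0.16, FDR 0.336). Of 12 collagens and collagen-modifying enzymes, all tested, none was lower and P4hb, a subunit of prolyl 4-hydroxylase that also acts as protein disulfide isomerase, was higher (log2 fold change 0.28, SE 0.07, FDR 0.0140), with a list median of -0.04. The share called was 8.33%, against 13.7% of all genes.

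The intracellular serpins of clade B were low and none of the 5 tested passed the threshold. Serpinb9, an inhibitor of granzyme B, had 8.75 to 12.8 CPM in control and 10.4 to 11.9 CPM in BIBB-515 mice (log2 fold change 0.11, SE 0.09). Serpinb6a (log2 fold change 0.01, SE 0.08) and Serpinb8 (-0.22, SE 0.17) overlapped between the diets, as did Serpinb6b (0.32, SE 0.22). Serpinb1a, an inhibitor of neutrophil proteases, had 2.98 to 5.33 CPM in control and 4.13 to 7.78 CPM in BIBB-515 mice (log2 fold change 0.40, SE 0.18, FDR 0.158). Its paralog Serpinb1c had 0 reads in all 6 control mice, and 15, 13, 7, 5, 8 and 4 reads in BIBB-515 replicates 6 to 11. Its mean of 0.298 CPM on BIBB-515 was 14.6 times the level that 3 reads over the whole control group would give. That level is an assumed reference, as no control read was counted. In the fit without a filter its FDR was 0.000558. Of its 50-base words, 2.75% occur in Serpinb1a. Serpini1, which encodes neuroserpin, was also below the filter, with 72 reads in all control and 69 in all BIBB-515 mice, as were Serpina3h and Serpina3i, with 100 and 36 reads in control and 102 and 34 in BIBB-515 mice.

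The listed transcription factors and receptors of hepatocytes had 3 of 18 tested genes past the threshold, with a median log2 fold change of -0.08. This share of 16.7% was close to the 13.7% of all genes. Cux2, a repressor that the liver of female mice expresses, had 53.9 to 99.6 CPM in control and 5.59 to 41.7 CPM in BIBB-515 mice, without overlap (log2 fold change -2.08, SE 0.46, FDR 0.00897). Foxa3 was lower (-0.68, SE 0.17, FDR 0.0150) and Cebpb, a factor of the acute phase response, higher (0.60, SE 0.15, FDR 0.0180). RefSeq gave a promoter, from 250 bases before to 50 after the start site, for 52 of the 63 Serpin genes. The letters GTTAAT occurred on either strand in 21.2% of these and in 8.24% of the promoters of all 27025 genes. They occurred in the promoters of all 5 Serpina1 genes, whose windows above were cut around this match, and in Serpina7, and not in the promoters of Serpina11 and Serpina12. The other Serpin genes with these letters were Serpina3c, Serpinb8, and Serpinb3b, Serpinb3d and Serpini2, the last of which, like the Serpinb3 genes, had no count in any mouse. The table holds no promoter of Serpina3k, Serpina4-ps1 or Serping1. The C/EBP letters TTGCNNAA occurred in 26.9% of the Serpin promoters and 12.2% of all, the STAT letters TTCNNNGAA in 15.4% and 9.55%, and the nuclear receptor letters AGGTCA in 32.7% and 18.1%, all on either strand and counted independently of each other. Among the genes with AGGTCA were Serpinb3b to Serpinb3d and Serpinb9c to Serpinb9g, which had no count in any mouse. The shares thus do not describe the expressed or changed members in particular. These are matches of letters, and copies of a gene share them by descent.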

How the data were processed

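Liver RNA-seq of 12 mice was analysed, 6 per diet, grouped by the diet in the labels. The authors deposited raw counts of reads per gene. Per the file headers, featureCounts 1.6.3 summed uniquely mapped reads over exons of a UCSC annotation of mm10, with no strand option and without reads on several genes. The submitters' notes also name STAR 2.5.3a and Subread 1.6.3. The library preparation is not given in the sources used here. Tables of primary alignments served as an alternative, tables per exon for exon values, and tables per transcript were not used.

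A gene was tested when 2 or more of the 12 mice reached 1 CPM, which kept 12481 of 24062 genes. With TMM size factors, edgeR 4.0.16 (R 4.3.3) fitted diet as the single term by quasi-likelihood, and p-values were adjusted by Benjamini-Hochberg across every gene tested (FDR). Fold changes are BIBB-515 over control. CPM values use TMM library sizes. The exact permutation test compared mean log2 CPM, with 0.01 CPM added, over 924 labelings. Exon log2 ratios compare group means of CPM without a test, and a spliced read counts in each exon it touches. The common biological coefficient of variation was 0.143. The fit was tested on simulated data. Nothing in the labels says that the mice shared a litter or batch. Named genes were those past an FDR of 0.05, plasma and liver serpins listed by role, the highest per clade, members without overlap, and at most 6 untested members by counts, with up to 4 genes of each further list. Serpinb1c was among those 6. The members and lists were chosen with earlier results of these data known. Alternatives were DESeq2 1.42.0, other size factors, limma-voom (limma 3.58.1), other filters, primary alignments, 1 surrogate variable (sva 3.50.0) and each mouse left out. A member that the rule would name is not reported here but enters all counts.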

Additional observations from a re-analysis of the deposited data

How the results depend on the processing

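The number of Serpin genes past an FDR of 0.05 was 8 to 11 under all alternatives, and 9 or 10 with each mouse left out. The 9 called members kept their direction throughout, and all but Serpina4-ps1 with limma-voom kept their call. The call was gained by Serpina1b with DESeq2 (FDR 0.0391) and by Serpinc1 in 3 fits. Without the filter, Serpina9 and Serpinb1c were called in addition. Signs near 0 changed for members without a call. Serpina3g had 0.03 with limma-voom and 0.01 with 1 surrogate variable, and Serpinf1 had 0.00 without the filter and with primary alignments. With each mouse left out, log2 fold changes ran from -0.10 to 0.00 for Serpina10, -0.09 to 0.00 for Serpina1d, -0.13 to 0.21 for Serpina3f, -0.13 to 0.10 for Serpina3g, -0.02 to 0.20 for Serpina6, -0.02 to 0.07 for Serpinb6a, -0.07 to 0.01 for Serpind1, -0.04 to 0.04 for Serpinf1 and -0.09 to 0.02 for Serpinf2. The count of all genes past the threshold ran from 1199 to 2436, and that of the further lists from 20 to 30. No paired analysis was possible because the 2 groups share a single replicate number. The tables of primary alignments held 1.00 times the reads of each Serpina1 gene, so they give no measure of reads that map to several copies.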
